A study of Homo sapiens with 33 samples.

Results

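The cell-cycle gene set described here holds the cyclins, the cyclin-dependent kinases (CDK) with their inhibitors and binding proteins, the CDC genes, the MCM genes, the kinesins and the centromere proteins (CENP) on a cDNA array. Its members are the spots whose annotation gives exactly 1 gene symbol and whose symbol starts with CCNA to CCNK and a digit, CDK and a digit, CDKN, CDC and a digit, MCM and a digit, KIF and a digit or C, or CENP. This rule took 157 of 34560 spots, for 97 of the 10726 genes with a spot of their own, and it used no measured value. By role, 10 spots (9 genes) belong to DNA replication, 22 spots (17 genes) to cycle control, 33 spots (22 genes) to mitosis and 92 spots (49 genes) to other roles such as cargo transport, transcription or signalling by the small GTPase CDC42. The members were found through 18025 spots with 1 symbol; spots with several symbols (858) or none (15677) were not searched. Several spots represent 40 of the genes, with 100 spots between them. CCND1, CCND2, CCND3, CCNE1, CDK1, CDK2, CDK4, CDKN1A, CDKN2A, CDKN2C and CDC25B were looked for and are not analysed here. The same holds for MCM7, CDC45, CENPA, CENPE, KIF20A and KIF23.

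The series measured polyadenylated RNA of 2 human cell lines on nylon membranes, after reverse transcription with a 33P label. CaCo-2 is an adherent colon carcinoma line with features of intestinal epithelium, and THP-1 is a monocytic leukaemia line that grows in suspension. The 4 groups were CaCo-2 cells stimulated for 60 min with TNF (tumour necrosis factor alpha, a cytokine of inflammation) at 5 ng/ml, unstimulated CaCo-2 cells, THP-1 cells given the same TNF dose for the same time, and unstimulated THP-1 cells. CaCo-2 and THP-1 cells were grown in different media, so line and medium cannot be told apart. Nothing in the labels says whether the arrays of a group stem from different cultures; every p-value therefore reflects array-to-array spread alone, and that spread could be technical.

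A dividing cell first copies its DNA and then pulls the copies apart. Replication starts when CDC6 helps to load the ring of MCM proteins 2 to 7 onto DNA, where the ring becomes the helicase that opens the double strand, and CDC7 is a kinase that switches it on. Cyclins bind and activate CDKs to drive the cycle forward, CDKN proteins hold the kinases back, and CDC25 phosphatases release them. In mitosis, CENP proteins build the attachment site on the chromosome, kinesins such as KIF11 move along microtubules to shape the spindle, and CDC20 and the anaphase-promoting complex (CDC16, CDC23, CDC26, CDC27) trigger the separation of chromosomes.

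Of 33 deposited columns, 22 arrays entered the comparisons: 5 of CaCo-2 with TNF, 5 of unstimulated CaCo-2, 7 of THP-1 with TNF and 5 of unstimulated THP-1. The other columns were sums that repeat the readings of a single column, or a pair of columns whose labels disagree. Values are log2 intensities after quantile normalization, and most members lie below 0 on this scale because the deposited intensities are mostly under 1. Between 32.03% and 39.6% of spots per array were deposited as exactly 0. Such readings were treated as missing, because at 10.9% to 16.8% of spots a single column held 0 where its summed column held a value above 0. Unstimulated THP-1 replicate 3 and unstimulated CaCo-2 replicate 1 stood apart: 1.29% and 1.20% of their readings lay more than 0.5 below the rest of their group, against 0.288% in TNF-treated CaCo-2 replicate 1 and at most 0.0556% in any other array. The THP-1 array is a deposited sum, divided here by 3, and its lowest value above 0 was then 0.0378, against 0.0921 to 0.136 in the other arrays; the part of this in its low readings was not tested.

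The labelled lines were checked against markers. VIL1 (villin, of the intestinal brush border) was higher in CaCo-2 over all arrays, by 0.09 ± 0.02 (log2 ± SE, limma adjusted p = 0.0038). LAPTM5, a lysosomal protein of blood cells, was above 0 on 1 of 5 TNF-treated and 0 of 5 unstimulated CaCo-2 arrays, against 7 of 7 TNF-treated and 5 of 5 unstimulated THP-1 arrays. Other markers did not separate the lines: the differences, CaCo-2 minus THP-1, were -0.06 ± 0.03 for PTPRC (adjusted p = 0.25), 0.01 ± 0.01 for CSF1R (0.80), 0.01 ± 0.03 for TYROBP (0.82) and -0.06 ± 0.04 for CDH17 (0.33). The 2 spots of ELF3, an epithelial transcription factor, gave opposite pictures, with spot 88A17 above 0 on 3 of 5 TNF-treated and 5 of 5 unstimulated CaCo-2 arrays and on none of 12 THP-1 arrays, and spot 85B06 on 2 of 5 and 0 of 5 CaCo-2 arrays and 6 of 7 and 5 of 5 THP-1 arrays. Markers of other cells gave 0.01 to 0.09 at 3 spots tested, of which 0 passed and 1 had an unadjusted limma p under 0.05. PECAM1, listed here for endothelium, is not specific to it. Its spot 38G13 averaged -0.05 and -0.09 in TNF-treated and unstimulated CaCo-2, against -0.15 and -0.16 in THP-1. COL1A1, of fibroblasts, was measured on 5 of 5 and 4 of 5 CaCo-2 arrays and 7 of 7 and 5 of 5 THP-1 arrays.

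Replication and mitosis genes are textbook targets of different promoter elements, which are shown because the results below are split by these roles. E2F factors bind a T-rich stretch followed by GC, searched here as TTTGGCGC, TTTCCCGC, TTTGCCGC or TTTCGCGC, and mitosis genes often carry the cell-cycle homology region (CHR, TTTGAA) near a CCAAT box. Each was searched on both strands, with overlapping copies counted separately, in the RefSeq promoter window of 250 bases before and 50 after the start (GRCh38.p14), which 84 of the 97 genes have. An E2F motif stood in 5 of 7 replication promoters (71.4%), 2 of 15 cycle control promoters, 3 of 21 mitosis promoters and 1 of 41 promoters of other roles, against 3.33% of all 27305 promoters. The CHR stood in 8 of 21 mitosis promoters (38.1%) and 0 of 7 replication promoters, against 15.4% of all promoters, and CHR and CCAAT together in 7 of 21 mitosis promoters, against 6.08%. The 250 bases before the start of 5 genes are printed 5′ to 3′ along the gene, with E2F, CHR and CCAAT matches on either strand in capitals.
MCM3 promoter, chr6:52284743-52284992, minus strand: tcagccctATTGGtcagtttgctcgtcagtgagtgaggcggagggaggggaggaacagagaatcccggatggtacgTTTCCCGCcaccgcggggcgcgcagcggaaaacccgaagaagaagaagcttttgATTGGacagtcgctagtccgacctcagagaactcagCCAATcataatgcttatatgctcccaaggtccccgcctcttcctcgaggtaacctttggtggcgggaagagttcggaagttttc
MCM6 promoter, chr2:135876444-135876693, minus strand: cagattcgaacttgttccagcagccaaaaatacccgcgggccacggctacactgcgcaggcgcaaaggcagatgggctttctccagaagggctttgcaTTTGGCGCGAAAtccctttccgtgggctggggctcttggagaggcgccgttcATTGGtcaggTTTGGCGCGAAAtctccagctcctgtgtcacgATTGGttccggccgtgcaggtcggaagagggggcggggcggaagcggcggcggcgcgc
CDC20 promoter, chr1:43358731-43358980, plus strand: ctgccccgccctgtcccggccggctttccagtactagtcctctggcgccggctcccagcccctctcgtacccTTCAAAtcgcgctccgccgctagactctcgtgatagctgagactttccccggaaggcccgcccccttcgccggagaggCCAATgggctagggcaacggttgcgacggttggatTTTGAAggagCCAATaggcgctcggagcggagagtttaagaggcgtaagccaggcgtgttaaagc
KIF11 promoter, chr10:92592880-92593129, plus strand: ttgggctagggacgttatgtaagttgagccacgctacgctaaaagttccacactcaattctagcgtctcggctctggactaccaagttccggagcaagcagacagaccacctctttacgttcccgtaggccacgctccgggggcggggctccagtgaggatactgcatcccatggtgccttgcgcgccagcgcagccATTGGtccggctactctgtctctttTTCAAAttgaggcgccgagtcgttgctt
CCNG1 promoter, chr5:163437321-163437570, plus strand: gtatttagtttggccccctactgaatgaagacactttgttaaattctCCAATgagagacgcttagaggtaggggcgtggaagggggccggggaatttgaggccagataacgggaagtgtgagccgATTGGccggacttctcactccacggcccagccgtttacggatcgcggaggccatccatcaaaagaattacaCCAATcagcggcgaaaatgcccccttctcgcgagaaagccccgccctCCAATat
MCM3 and MCM6 represent the helicase, and the paired E2F matches of MCM6 lie on both strands and overlap. CDC20 and KIF11 represent mitosis, each with a CHR. CCNG1 is the cycle control gene with the largest difference between the lines where readings at 0 are treated as missing. Where such readings are raised to the lowest value, CCNB1, CDKN2AIP and CDC37 are among the genes that exceed it in size. The CCNG1 promoter holds 4 CCAAT boxes and neither an E2F motif nor a CHR. A match is only a run of letters, and no measurement here bears on binding.

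The first question was whether the cell-cycle genes differ between the lines. Within the unstimulated arrays 0 of 101 member spots passed the limma test after Benjamini-Hochberg adjustment over all spots (threshold 0.05), where 0.108% of the 19420 spots tested passed (0.0309% higher and 0.0772% lower). Within the TNF-treated arrays 0 of 106 passed, against 0.646% of 20750 spots (0.439% higher and 0.207% lower). At an unadjusted p under 0.05 there were 13 of the 101 members (13.4% of all spots) and 29 of the 106 members (17.3% of all spots). With readings at 0 raised to the lowest value of the array, 0 members passed within the unstimulated arrays, against 0.449% of spots (0.281% higher and 0.168% lower), and 3 within the TNF-treated arrays, against 1.25% (0.709% higher and 0.541% lower). These 3 were CDK5RAP2 spot 09I05, lower at -1.82 ± 0.35 (adjusted p = 0.041), MCM9, lower at -0.21 ± 0.03 (0.022), and KIF5C, higher by 0.96 ± 0.16 (0.028). CDK5RAP2 spot 09I05 had no measured reading in TNF-treated CaCo-2, and all 3 values depend on what an exact 0 stands for. With readings at 0 missing, 2 members passed within the unstimulated arrays once CaCo-2 replicate 1 was left out, as did 399 of all spots (19420 were tested with every array in). These members were CCNG2, higher by 0.14 ± 0.03 (adjusted p = 0.037), and CDK5RAP1, lower at -0.14 ± 0.03 (0.028). Leaving out 1 TNF-treated array let 1 member pass in 5 cases: CDC37 without CaCo-2 replicate 1 or THP-1 replicate 5 or 8, CCNG1 without CaCo-2 replicate 2, and CDK9 without CaCo-2 replicate 6. Over all such left-out fits, 54 to 433 of all spots passed (20750 were tested with every array in).

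With all 22 arrays in 1 model that takes out the effect of TNF, 10 of 90 member spots passed, of which 4 were higher and 6 were lower in CaCo-2. This was near the background, since 10.7% of all 16931 spots passed (6.07% higher and 4.62% lower). The median difference, CaCo-2 minus THP-1, was 0.01 over members and 0.0097 over all spots. Cycle control held 3 spots that were higher and 1 that was lower among 14 tested, replication 0 of 7, mitosis 0 of 22, and other roles 1 higher and 5 lower of 47. At an unadjusted p under 0.05 the counts were 3 of 7 for replication and 2 of 22 for mitosis, where all spots gave 27.6%. All differences were small, between -0.16 and 0.16. With no normalization between arrays none of the 10 passed, and other settings that ended a call are given with the gene. In these bulk samples, fewer cells of a kind and less RNA per cell cannot be told apart.

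**Figure D1:**
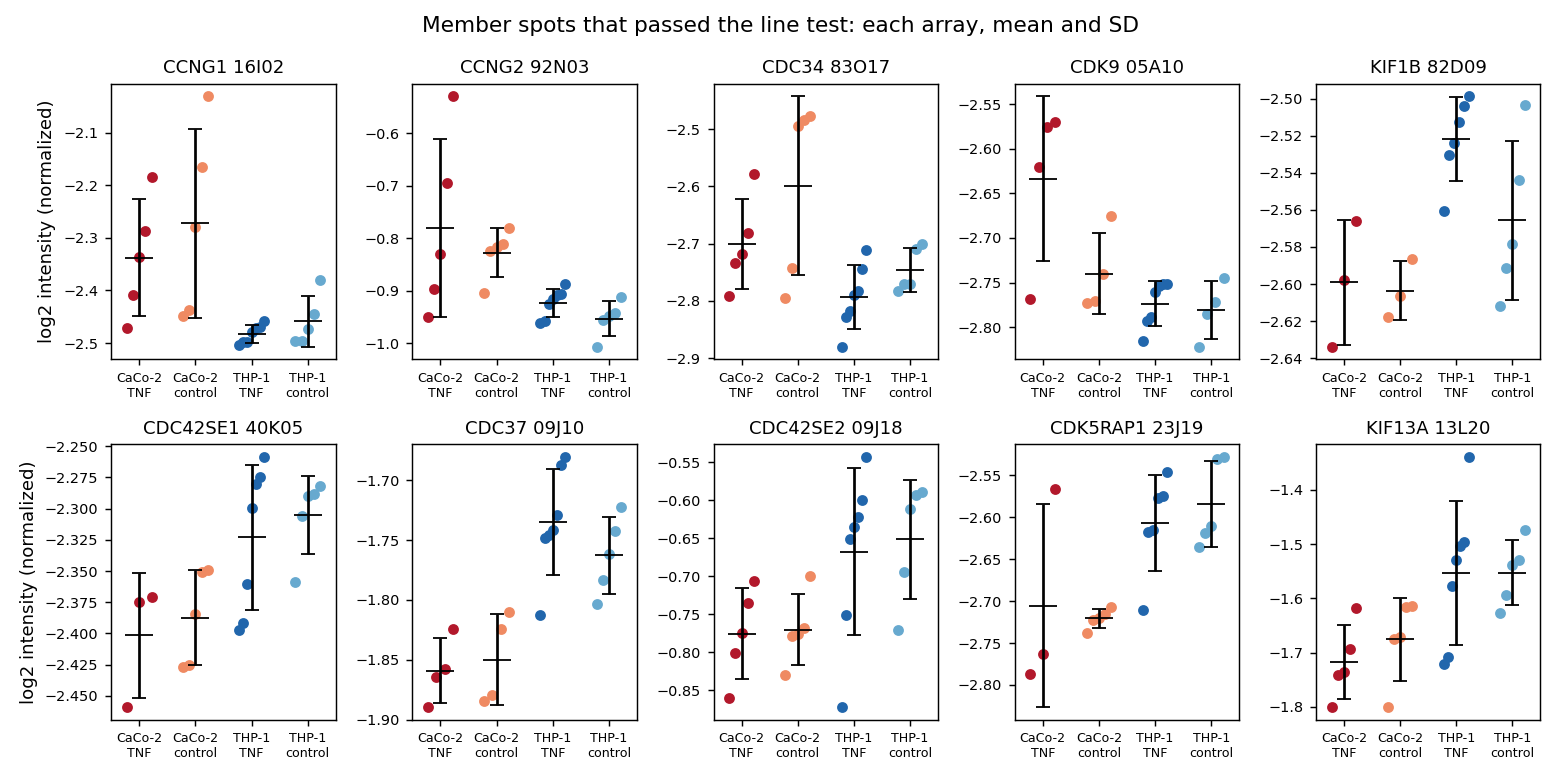
Log2 intensity (y axis) of the 10 member spots that passed the test between the lines, 1 panel per spot and 1 point per array, with TNF-treated and unstimulated CaCo-2 arrays left of TNF-treated and unstimulated THP-1 arrays and black lines for the mean and SD of each group. The array values of the lines overlap in every panel, and CCNG1, with a line difference of 0.16, has an SD of 0.11 in TNF-treated and 0.18 in unstimulated CaCo-2.

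Cycle control. CCNG1, cyclin G1, a target of p53 whose protein binds a phosphatase, was higher in CaCo-2. Spot 16I02 read -2.41, -2.47, -2.29, -2.18 and -2.34 in TNF-treated CaCo-2 arrays and -2.45, -2.28, -2.17, -2.03 and -2.44 in unstimulated ones. In THP-1 the range was -2.50 (median -2.48) to -2.46 in the 7 TNF-treated arrays, and -2.47, -2.38, -2.45, -2.50 and -2.50 in the unstimulated ones. The THP-1 arrays lay close together while the CaCo-2 arrays were spread upwards from about the same level, and the difference was 0.16 ± 0.04 (limma adjusted p = 0.012).

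CCNG2, cyclin G2, an atypical cyclin linked to cell-cycle arrest, was also higher in CaCo-2 at spot 92N03, by 0.13 ± 0.03 (adjusted p = 0.018). It read -0.95, -0.90, -0.53, -0.70 and -0.83 in TNF-treated and -0.91, -0.82, -0.81, -0.82 and -0.78 in unstimulated CaCo-2 arrays. In THP-1 the readings ran from -0.96 (median -0.92) to -0.89 with TNF, and -0.91, -0.95, -1.01, -0.96 and -0.94 without. The lowest CaCo-2 arrays reached into the THP-1 range. With array medians subtracted in place of quantile normalization, spot 92N03 gave 0.16 (0.064). The other CCNG2 spot, 03I13, differed by 0.03 ± 0.02 (adjusted p = 0.24).

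CDC34, an E2 ubiquitin-conjugating enzyme that serves the breakdown of CDK inhibitors, was higher in CaCo-2 by 0.12 ± 0.04 (adjusted p = 0.035). It read -2.72, -2.79, -2.68, -2.73 and -2.58 in TNF-treated CaCo-2 arrays, and -2.80, -2.48, -2.49, -2.48 and -2.74 in unstimulated ones, 3 of which lay well above the other 2. Readings in THP-1 ran from -2.88 (median -2.79) to -2.71 with TNF, and -2.71, -2.77, -2.78, -2.70 and -2.77 without. The call depended on single arrays: it was lost, with adjusted p between 0.052 and 0.066, without TNF-treated CaCo-2 replicate 4 or 6, unstimulated CaCo-2 replicate 2, 3 or 4, TNF-treated THP-1 replicate 3, or unstimulated THP-1 replicate 2 or 7. It was also lost with readings at 0 raised to the lowest value (0.13, 0.092) and with the replicate number as a block (0.11, 0.074).

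CDC37, a chaperone partner of HSP90 that helps kinases such as CDK4 to fold, was the cycle control gene that was lower in CaCo-2, by -0.11 ± 0.02 (adjusted p = 0.0016). It read -1.86, -1.86, -1.82 and -1.89 in 4 TNF-treated CaCo-2 arrays and -1.88, -1.82, -1.81 and -1.88 in 4 unstimulated ones, with the fifth array of each at 0. The THP-1 readings ran from -1.81 (median -1.74) to -1.68 with TNF, and -1.78, -1.72, -1.74, -1.76 and -1.80 without. The lines met only at -1.81. With readings at 0 raised to the lowest value, the difference was -0.38 and missed the threshold (0.22).

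The other cycle control spots did not pass. CCNA2, cyclin A2 of S phase and G2, differed by 0.05 ± 0.02 (adjusted p = 0.12), with a mean of -2.27 ± 0.01 in TNF-treated CaCo-2 and -2.25 ± 0.08 in unstimulated CaCo-2, against -2.33 ± 0.03 in TNF-treated THP-1 and -2.30 ± 0.03 in unstimulated THP-1 (SD, 4 arrays each). CCNB2, a mitotic cyclin, differed by 0.0045 ± 0.02 (0.92). CDK6, a cyclin D partner of G1, gave 0.02, -0.02 and 0.05 at its 3 spots, and the CDK inhibitors CDKN1B and CDKN2B gave 0.01 ± 0.02 and 0.02 ± 0.02. The difference was positive for 12 of the 14 spots, against 9966 of all 16931 spots, with a median of 0.02 against 0.0097. Without unstimulated CaCo-2 replicate 5, CCNA2 passed at 0.07 ± 0.02 (adjusted p = 0.048), and likewise at 0.06 ± 0.02 (0.038) with readings at 0 held at the lowest value during normalization.

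Replication. None of the 7 spots tested passed, and no direction was shared. MCM2, a helicase subunit, read -0.24, -0.16, -0.05, -0.14 and 0.04 in TNF-treated and -0.27, -0.05, -0.28, -0.16 and 0.14 in unstimulated CaCo-2 arrays. In THP-1 the readings ran from -0.34 (median -0.23) to -0.06 with TNF, and -0.20, -0.33, -0.13, -0.29 and -0.27 without. The groups overlapped broadly, and the difference was 0.12 ± 0.05 (limma adjusted p = 0.097). MCM2 passed as higher in CaCo-2 at 0.14 ± 0.04 (0.039) with the mean of single and summed columns, and at 0.15 ± 0.04 (0.038) with the lowest value of each array as a covariate.

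MCM4, of the same ring, lay the other way, at -0.07 ± 0.03 (adjusted p = 0.087). It averaged -2.48 ± 0.03 in TNF-treated CaCo-2 and -2.45 ± 0.10 in unstimulated CaCo-2 (SD, n = 5 each), against -2.37 ± 0.06 in TNF-treated THP-1 (n = 7) and -2.42 ± 0.04 in unstimulated THP-1 (n = 5). Unstimulated CaCo-2 replicate 3, at -2.29, was the highest CaCo-2 array, and without it MCM4 was lower in CaCo-2 at -0.09 ± 0.02 (adjusted p = 0.012). CDC6, the loader, differed by -0.13 ± 0.06 (adjusted p = 0.16). Its unstimulated CaCo-2 replicate 1 read 0.50 where the other 4 read 0.07, 0.07, 0.24 and 0.16, and without that array CDC6 was lower in CaCo-2 at -0.17 ± 0.06 (adjusted p = 0.046).

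MCM3, whose promoter is printed above, differed by 0.09 ± 0.05 (adjusted p = 0.28), and this value rests on unstimulated CaCo-2 replicate 3 at -2.10, since the other 3 arrays of that group read -2.70 to -2.63 and those of TNF-treated CaCo-2 -2.74 to -2.65. MCM6, with the overlapping E2F matches, was nearly level: -2.09 ± 0.03 in TNF-treated CaCo-2 (n = 5), -2.11 ± 0.02 in unstimulated CaCo-2 (n = 4), -2.10 ± 0.03 in TNF-treated THP-1 (n = 4) and -2.12 ± 0.02 in unstimulated THP-1 (n = 4). Its difference was 0.01 with a 95% interval from -0.02 to 0.04. MCM5 and MCM8 gave -0.04 ± 0.02 and -0.02 ± 0.02. CDC7 and MCM9, a helicase related to the ring that acts in DNA repair, had too few arrays above 0 to be tested over all arrays.

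The other replication genes on the array give the wider pathway, from a list drawn up by function with earlier results of these data known. Of 17 spots tested over all arrays, 2 were higher in CaCo-2 and 0 lower, against 6.07% higher and 4.62% lower of all spots, so the count is near the background. The median was 0.02, against 0.0097 over all spots. RRM2, the regulated subunit of ribonucleotide reductase that makes deoxynucleotides, was higher by 0.20 ± 0.04 (adjusted p = 0.0017), at -2.18 ± 0.16 in TNF-treated and -2.17 ± 0.09 in unstimulated CaCo-2, against -2.36 ± 0.04 in TNF-treated and -2.38 ± 0.03 in unstimulated THP-1. RPA1, which coats single-stranded DNA, was higher by 0.12 ± 0.03 at spot 53O24 (0.0076), while its spot 06F16 had too few readings to be tested over all arrays.

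Mitosis. Of 22 spots tested, 0 passed in limma and 2 had an unadjusted p under 0.05. The differences were positive for 14 of the 22, against 9966 of all 16931 spots, with a median of 0.02 against 0.0097. CDC20, the activator of the anaphase-promoting complex, read -2.13, -2.10, -1.92, -1.96 and -2.12 in TNF-treated and -2.19, -1.89, -1.89, -2.02 and -2.10 in unstimulated CaCo-2 arrays. Readings in THP-1 ran from -2.17 (median -2.16) to -2.06 with TNF, and averaged -2.09 ± 0.06 without (SD, n = 5), with a lowest reading of -2.15. The CaCo-2 arrays reached both above and below the THP-1 arrays, and the difference was 0.08 ± 0.03 (adjusted p = 0.11). Without unstimulated CaCo-2 replicate 1, which gave the lowest reading of -2.19, CDC20 was higher in CaCo-2 by 0.10 ± 0.03 (adjusted p = 0.027), and so it was with readings at 0 held at the lowest value during normalization (0.10 ± 0.03, 0.042).

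Of the subunits of that complex, CDC23 gave -0.01 and -0.0013 at its 2 spots, and CDC27 0.08 ± 0.06 (adjusted p = 0.36) at spot 25C10 and -0.00093 ± 0.03 (0.99) at spot 42L14. Among the centromere proteins, CENPV (a protein of centromere organisation) gave 0.05 ± 0.02 (adjusted p = 0.14), CENPM 0.04 ± 0.02 (0.26) and CENPN, which reads the centromeric nucleosome, -0.08 ± 0.05 and 0.04 ± 0.02 at its 2 spots. With array medians subtracted in place of quantile normalization, CENPV and CENPM passed as higher in CaCo-2, at 0.09 ± 0.02 each (0.0077 and 0.015), and also among the TNF-treated arrays alone (0.10 ± 0.02 and 0.12 ± 0.03, 0.028 and 0.038). CENPM passed as well with readings at 0 held at the lowest value during normalization (0.08 ± 0.03, 0.040). CENPX, also part of the Fanconi anaemia machinery, had the widest CaCo-2 spread: TNF-treated arrays read -1.93, -1.08, -1.78, -1.76 and -1.97, against -1.91, -1.82, -1.94, -1.81 and -1.93 in unstimulated ones. Its difference of 0.14 ± 0.07 (adjusted p = 0.21) rests largely on the 1 array at -1.08.

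CENPT and CENPF, which link the centromere to the kinetochore and form its outer layer, each gave 0.15 ± 0.09 (adjusted p = 0.315 and 0.305), and both values rest on unstimulated THP-1 replicate 3. CENPT read -3.13 in that array and -2.13 to -2.04 in the other 4, and CENPF spot 93N06 read -3.15 there and -2.41 to -2.35 in the other 2 with a value. Of the mitotic kinesins, KIF11, the bipolar spindle motor, was level at spot 90K14: it averaged -0.69 ± 0.06 in TNF-treated and -0.68 ± 0.06 in unstimulated CaCo-2, against -0.66 ± 0.06 in TNF-treated and -0.65 ± 0.07 in unstimulated THP-1, a difference of -0.03 ± 0.03 (0.53). KIF22, which pushes chromosome arms, and KIF2C, a microtubule depolymerase, differed by 0.00020 ± 0.02 and 0.0095 ± 0.02.

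Beside these 22 spots stand the other mitosis genes of the array, from a list drawn up by function with earlier results of these data known. Of their 33 spots tested, 9 were higher and 1 lower in CaCo-2, against 6.07% higher and 4.62% lower of all spots. Because the earlier results were known, this count is no independent test. The median of the 33 spots was 0.04, against 0.0097 over all spots. With readings at 0 raised to the lowest value, 2 of 42 spots were higher and 0 lower, against 2.74% and 1.91% of all spots. TPX2, a spindle assembly factor, was higher at both of its spots, by 0.18 ± 0.03 (79F14, adjusted p = 0.0045) and 0.10 ± 0.02 (32E21, 0.011), and spot 79F14 also passed within the TNF-treated arrays (0.15 ± 0.03, adjusted p = 0.021). PTTG1 (securin) was higher by 0.11 ± 0.02 and 0.09 ± 0.02, and AURKB (a kinase of the chromosomal passenger complex) by 0.08 ± 0.02 and 0.07 ± 0.02. SPC25 and ANAPC1 were higher by 0.07 and 0.04. UBE2C, a ubiquitin-conjugating enzyme of the anaphase-promoting complex, was higher at spot 50O15 by 0.06 ± 0.02 (0.025), while its spot 29F09 gave 0.05 ± 0.03 (0.29), its spot 05J23 lay the other way at -0.04 ± 0.03 (0.39), and spot 20G18 had too few readings. ANAPC5, a subunit of the anaphase-promoting complex like ANAPC1, was lower at -0.07. Whether these genes differ from the member mitosis spots was not tested. Of 9 spots of other cycle control genes 0 passed, and 0 had an unadjusted p under 0.05.

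**Figure D2:**
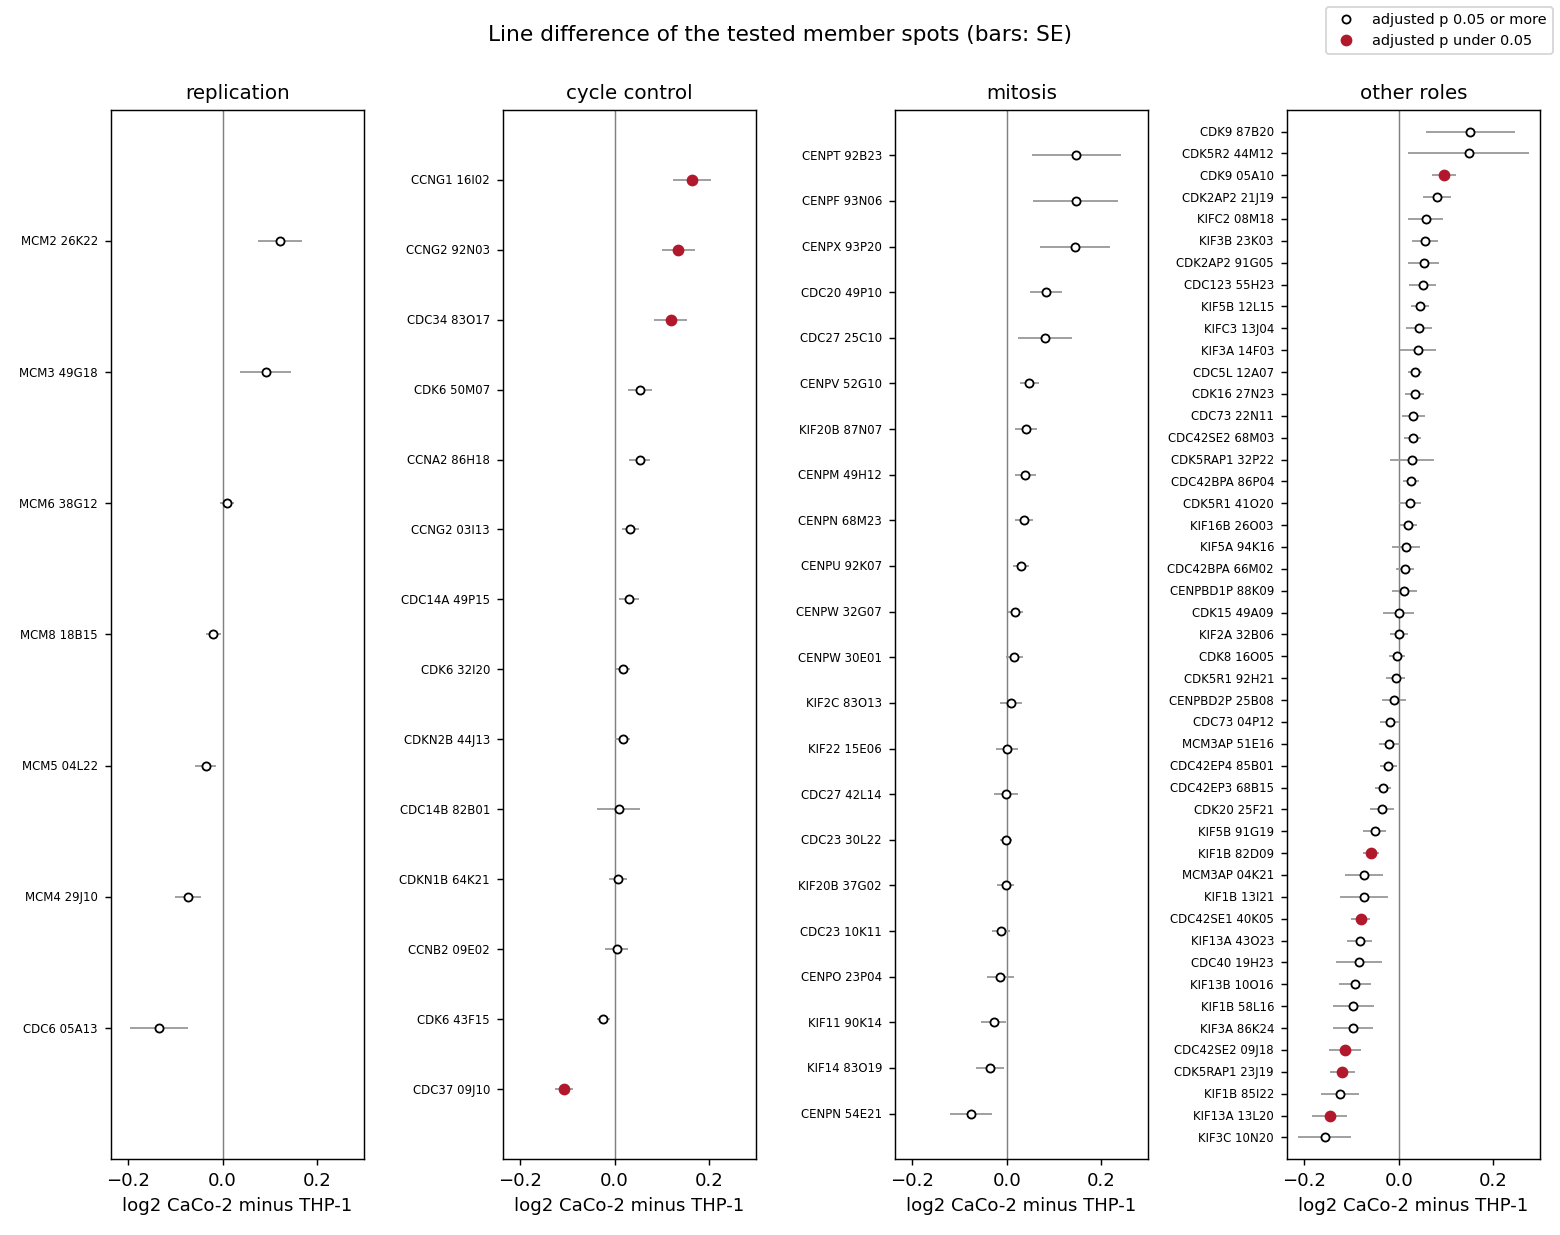
Difference between the lines over all arrays (CaCo-2 minus THP-1, log2, x axis) for each member spot tested, 1 row per spot and 1 panel per role, with SE bars and filled points for spots with an adjusted p under 0.05. The panels of replication and mitosis hold no filled point, and cycle control holds 3 to the right of 0 and 1 to the left.

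Other roles. The kinesins that were called carry cargo. KIF13A, a motor of endosome and vesicle transport, was lower in CaCo-2 at spot 13L20, by -0.15 ± 0.04 (adjusted p = 0.017). It read -1.74, -1.69, -1.74, -1.62 and -1.80 in TNF-treated and -1.62, -1.67, -1.68, -1.61 and -1.80 in unstimulated CaCo-2 arrays. The THP-1 readings ran from -1.72 (median -1.53) to -1.34 with TNF, and -1.59, -1.54, -1.47, -1.53 and -1.63 without. Most THP-1 arrays lay above every CaCo-2 array. Its spot 43O23 differed by -0.08 ± 0.03 (0.053), and passed at -0.10 to -0.09 (adjusted p between 0.030 and 0.050) without TNF-treated CaCo-2 replicate 5, unstimulated CaCo-2 replicate 3, TNF-treated THP-1 replicate 5 or 8, or unstimulated THP-1 replicate 3. It also passed under 4 other settings, at -0.09 to -0.08 (0.038 to 0.047).

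KIF1B, a motor for mitochondria and synaptic vesicle precursors, was lower at spot 82D09, by -0.06 ± 0.02 (adjusted p = 0.040), and its 4 spots tested all lay between -0.12 and -0.06. Spot 82D09 read -2.63, -2.57 and -2.60 in TNF-treated and -2.59, -2.62 and -2.61 in unstimulated CaCo-2 arrays. In THP-1 the readings ran from -2.56 (median -2.52) to -2.50 in 6 arrays with TNF, and -2.54, -2.59, -2.50, -2.61 and -2.58 without. Only 16 of the 22 fits with 1 array left out could test this spot, which has 3 measured arrays in each CaCo-2 group. The call was lost, with adjusted p between 0.052 and 0.066, without any 1 of TNF-treated THP-1 replicates 1 to 5 or unstimulated THP-1 replicates 1 and 3. It held in 5 of 11 other settings, and among those that ended it the values ran from -0.22 (readings at 0 raised, adjusted p = 0.33) to -0.046 (array medians subtracted, 0.078). Spot 85I22 missed the threshold at -0.12 ± 0.04 (0.053) and passed, at -0.14 to -0.13 with adjusted p between 0.028 and 0.047, without TNF-treated CaCo-2 replicate 5, unstimulated CaCo-2 replicate 3 or 4, TNF-treated THP-1 replicate 4 or 8, or unstimulated THP-1 replicate 2, and under 5 other settings. Among related motors, KIF3C gave -0.16 ± 0.06 (0.073) and KIF13B -0.09 ± 0.03 (0.076). Both passed without TNF-treated THP-1 replicate 5 or 8, at -0.17 or -0.18 for KIF3C (adjusted p = 0.047 and 0.027) and -0.11 or -0.10 for KIF13B (0.037 and 0.035), and KIF3C also without unstimulated CaCo-2 replicate 1 (-0.17, 0.049) and under 3 other settings (-0.16 to -0.14, 0.048 each).

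CDC42SE1 and CDC42SE2, small effectors of the GTPase CDC42, were lower in CaCo-2. CDC42SE1 spot 40K05 averaged -2.40 ± 0.05 in TNF-treated CaCo-2 (n = 3) and -2.39 ± 0.04 in unstimulated CaCo-2 (n = 5), against -2.32 ± 0.06 in TNF-treated THP-1 (n = 7) and -2.31 ± 0.03 in unstimulated THP-1 (n = 5), a difference of -0.08 ± 0.02 (limma adjusted p = 0.019). This call held in 6 of 11 other settings. It ended with the spots of the gene averaged (-0.035, adjusted p = 0.14) and with readings at 0 raised (-0.24, 0.20). It also ended with readings at 0 held at the lowest value during normalization (-0.051, 0.076), and with the mean of single and summed columns (-0.11, 0.054). The mean of single and summed columns carries the limit given for MCM2. CDC42SE1 spot 40K05 could be tested in only 19 of 22 fits with 1 array left out. CDC42SE2 spot 09J18 averaged -0.78 ± 0.06 and -0.77 ± 0.05 in TNF-treated and unstimulated CaCo-2 (n = 5 each), against -0.67 ± 0.11 (n = 7) and -0.65 ± 0.08 (n = 5) in TNF-treated and unstimulated THP-1, a difference of -0.11 ± 0.03 (limma adjusted p = 0.034). The CDC42SE2 call was lost, at 0.052 to 0.062, without TNF-treated CaCo-2 replicate 1 or 6, unstimulated CaCo-2 replicate 2 or 5, TNF-treated THP-1 replicate 1, 2, 3 or 4, or unstimulated THP-1 replicate 2 or 4. It was also lost with its spots averaged (-0.059, 0.13) and with array medians subtracted (-0.094, 0.11). Spot 68M03 of CDC42SE2 differed by 0.03 ± 0.02 (0.32).

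In the fit of all arrays, 1 member of other roles was called as higher in CaCo-2. CDK9, the kinase that releases paused RNA polymerase, was higher by 0.10 ± 0.02 at spot 05A10 (adjusted p = 0.020). It read -2.57, -2.58, -2.62 and -2.77 in TNF-treated and -2.74, -2.77, -2.77 and -2.68 in unstimulated CaCo-2 arrays. Readings in THP-1 ran from -2.82 (median -2.76) to -2.75 with TNF, and -2.82, -2.78, -2.74 and -2.77 without. The 3 highest readings were of TNF-treated CaCo-2 arrays. The call ended with readings at 0 raised to the lowest value, at 0.039 (adjusted p = 0.85), and with the spots of the gene averaged, at 0.12 (0.11). CDK2AP2 spot 21J19 was not called but passed as higher under 2 other settings, at 0.09 and 0.10 (limma adjusted p = 0.041 and 0.0060). It also passed without unstimulated CaCo-2 replicate 1 or 5 or TNF-treated CaCo-2 replicate 2, at 0.09 to 0.10 (0.033 to 0.044). KIF3B, CDK16 spot 27N23 and CDC42BPB passed as higher under 1 other setting each (0.10, 0.06 and 0.16). KIF5B spot 91G19 passed as lower with the mean of single and summed columns (-0.13).

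CDK5RAP1, an enzyme that modifies mitochondrial transfer RNA, was lower at spot 23J19 by -0.12 ± 0.03 (0.0095), reading -2.79, -2.57 and -2.76 in TNF-treated and -2.72, -2.72, -2.74, -2.71 and -2.72 in unstimulated CaCo-2 arrays, against -2.71 to -2.55 in TNF-treated and -2.62, -2.61, -2.53, -2.53 and -2.64 in unstimulated THP-1 arrays. In the unstimulated arrays its groups did not overlap, and its spot 32P22 differed by 0.03 ± 0.05. The call ended with the spots of the gene averaged (-0.027, adjusted p = 0.59), with the mean of single and summed columns (-0.053, 0.48) and with readings at 0 raised (-0.17, 0.29). The mean of single and summed columns carries the limit given for MCM2. Spot 23J19 could be tested in only 19 of 22 fits with 1 array left out.

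Spots of 1 gene did not always give the same picture. Of 19 genes with more than 1 spot tested over all arrays, 9 had differences of 1 sign and 10 of both signs. CDK9 (0.10 and 0.15), CCNG2, CENPW, KIF13A, KIF1B and MCM3AP were among those with 1 sign. CDC42SE2 and CDK5RAP1 were among those with both, so their lower values hold for 1 spot each. The unstimulated and the TNF-treated arrays give separate line comparisons with no array in common. These comparisons are not independent, because some CaCo-2 arrays of the 2 groups deviated together from their group means. Unstimulated replicate 5 and TNF-treated replicate 6, for example, had r = 0.73. The difference had the same sign in both for 71 of 90 members (78.9%), against 71.8% of all 16931 spots, and for 7 of 7 replication spots, 12 of 14 cycle control spots, 16 of 22 mitosis spots and 36 of 47 spots of other roles.

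Some members were measured above 0 in 1 line more often than in the other. Over the 22 arrays, 29.3% of the members' readings were at 0, against 34.4% over all spots, and by role 18.6% for replication, 26.8% for cycle control, 27.2% for mitosis and 31.7% for other roles. Only 30 of 157 members were above 0 on every array. No member was above 0 on all arrays of 1 group and at 0 on all arrays of the group compared with it, where between 0.00289% and 0.231% of all spots were, by comparison. CENPB, which binds a motif of centromeric repeats, was at 0 on all 22 arrays.

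CCNB1, cyclin B1 of mitotic entry, was above 0 on 5 of 5 TNF-treated and 5 of 5 unstimulated CaCo-2 arrays, against 2 of 7 TNF-treated and 2 of 5 unstimulated THP-1 arrays. Where it was above 0 its mean was -2.75 and -2.76 in CaCo-2 and -2.75 and -2.85 in THP-1. The lines differed in how often it was measured, and 2 measured arrays in each THP-1 group are too few to compare its level. KIF11 spot 80C13 ran the other way, above 0 on 0 of 5 and 0 of 5 CaCo-2 arrays against 4 of 7 and 4 of 5 THP-1 arrays, while its spot 90K14 was above 0 on all 22. With readings at 0 raised to the lowest value of the array, CCNB1 was higher in CaCo-2 by 0.35 ± 0.09 (limma adjusted p = 0.025) and KIF11 spot 80C13 lower at -0.37 ± 0.09 (0.017), where 4.65% of all 34554 spots passed the threshold (2.74% higher and 1.91% lower) and 8 members did, 5 higher and 3 lower. These values depend on what an exact 0 stands for, which the sources used here do not give.

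Others with uneven counts, given as TNF-treated then unstimulated CaCo-2 arrays and then TNF-treated and unstimulated THP-1 arrays above 0, follow. CDKN2AIP, which binds the CDKN2A protein ARF, had 3 of 5, 3 of 5, 0 of 7 and 0 of 5 at spot 52J01, but 5, 2, 5 and 4 at spot 30H15. CDKN1C, the CDK inhibitor p57, had 1, 3, 0 and 0. CCNE2, a cyclin of S phase entry, had 0, 3, 4 and 2, and CCNA1, a cyclin best known from the germ line, 2, 0, 6 and 3. MCM9 had 1, 3, 7 and 3.

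**Figure D3:**
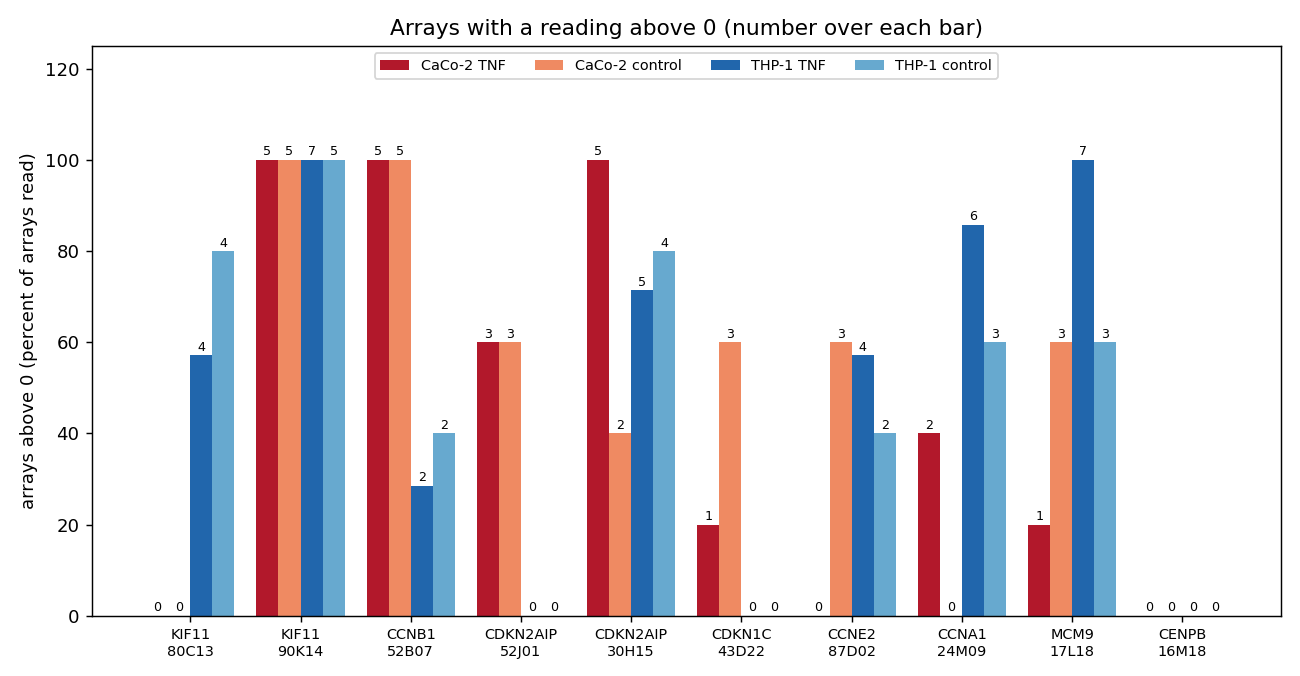
Percent of arrays with a reading above 0 (y axis, with the number of arrays over each bar) in TNF-treated and unstimulated CaCo-2 and TNF-treated and unstimulated THP-1 for member spots with uneven counts, with KIF11 spot 90K14 and CENPB beside them. CCNB1 stands at 100% in both CaCo-2 groups, and KIF11 spot 80C13 at 0% in both.

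The second question was what 60 min of TNF does to these genes. In CaCo-2, 0 of 102 member spots passed in limma, as did 0 of all 19479 spots tested (0%). At an unadjusted p under 0.05 there were 4 members and 527 of all spots (2.71%). The median TNF effect (TNF minus unstimulated) was -0.0049 over members and -0.0014 over all spots, and the members lay between -0.19 and 0.18. With readings at 0 raised to the lowest value, 0 members and 15 of all spots passed (0.0434%, with 0.026% higher and 0.0174% lower), and 4.21% of all spots had an unadjusted p under 0.05.

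The member with the smallest p was KIF3A spot 43D08, a motor of transport in cilia, at -3.17, -3.10 and -3.16 in 3 TNF-treated arrays against -3.03, -3.04, -2.96 and -3.07 in 4 unstimulated ones. The groups did not overlap, but the effect of -0.12 ± 0.04 had an adjusted p of 1.0 in limma (unadjusted 0.0087). CDC73, a subunit of the PAF complex of transcription, read -2.78, -2.80 and -2.74 with TNF against -2.88, -2.83, -2.85 and -2.86 without at spot 22N11 (0.08 ± 0.03, unadjusted limma p = 0.018). Its spot 04P12 averaged -2.50 ± 0.06 with TNF (SD, n = 5) and -2.54 ± 0.04 without (n = 4). CENPT read -2.04, -2.02, -1.99 and -2.04 against -2.12, -2.06, -2.08, -2.04 and -2.12 (0.07 ± 0.02, unadjusted limma p = 0.020). CDK9 spot 05A10, given above, had an effect of 0.11 ± 0.04 (unadjusted limma p = 0.036).

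In cycle control and replication 0 of 17 and 0 of 7 members had an unadjusted p under 0.05 in CaCo-2. CCNB1 averaged -2.75 ± 0.10 with TNF and -2.76 ± 0.13 without (n = 5 each), CCNG1 -2.34 ± 0.11 and -2.27 ± 0.18, and CDC20 -2.05 ± 0.10 and -2.02 ± 0.13. The MCM3 effect of -0.19 ± 0.10 is the lowest of all members and rests on the 1 unstimulated array at -2.10.

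In THP-1, 0 of 111 member spots and 0 of 21989 spots (0%) passed in limma. At an unadjusted p under 0.05 there were 5 members and 778 of all spots (3.54%), and with readings at 0 raised to the lowest value 0 members and 5 of all spots passed (0.0145%, with 0.00868% higher and 0.00579% lower), with 3.37% of all spots at an unadjusted p under 0.05. The median effect was -0.01 over members and -0.01 over all spots. KIF5B, the main conventional kinesin, read from -2.82 (median -2.81) to -2.76 in the 7 TNF-treated arrays at spot 91G19, against -2.70, -2.79, -2.71, -2.74 and -2.66 in the unstimulated ones, with 1 unstimulated array inside the TNF range. The effect was -0.08 ± 0.02 (limma p = 0.0038, adjusted p = 0.93). KIF14, a kinesin of cytokinesis, gave -0.10 ± 0.03 (unadjusted 0.013), CDC42EP4 -0.06 ± 0.02 (0.026), CDK9 spot 87B20 0.16 ± 0.07 (0.043) and KIF1B spot 82D09 0.04 ± 0.02 (0.049).

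The largest TNF effects of members in THP-1 were those of CDK5R2, an activator of CDK5 known from neurons, at 0.29 ± 0.21, of CENPF spot 93N06 at 0.27 ± 0.19 and of CENPT at 0.20 ± 0.16. All 3 rest on unstimulated replicate 3. CDK5R2 read -3.09 in that array, and -1.61 ± 0.01 in the other 4 (SD), against -1.64 (median -1.61) to -1.58 in the 7 TNF-treated arrays.

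Whether TNF acted differently in the 2 lines was tested as an interaction. Of 90 members and 16931 spots 0 passed in limma (0%), with or without readings at 0 raised, and at an unadjusted p under 0.05 there were 5 members and 545 of all spots (3.22%, or 4.18% with readings at 0 raised). KIF5B spot 91G19 had the smallest p of the members: its TNF effect in CaCo-2 minus that in THP-1 was 0.14 ± 0.04 (limma p = 0.0023, adjusted p = 1). TNF-treated CaCo-2 arrays read -2.88, -2.73, -2.75 and -2.76 at this spot and unstimulated ones -2.81, -2.84, -2.85 and -2.87. A missed threshold does not show that TNF had no effect on these genes, and the SE of a member's TNF effect had a median of 0.04 in CaCo-2 and 0.03 in THP-1.

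**Figure D4:**
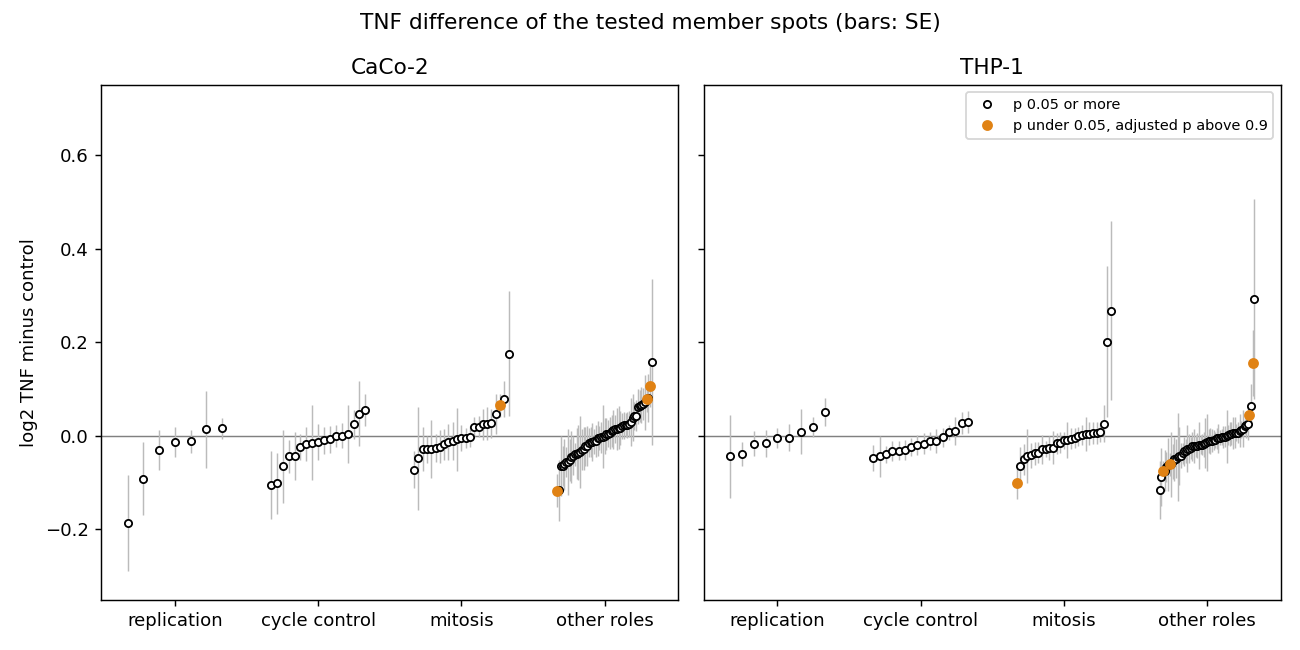
TNF effect (TNF minus unstimulated, log2, y axis) of each member spot tested in CaCo-2 (left) and in THP-1 (right), sorted by value within each role, with SE bars. Filled points mark an unadjusted p under 0.05, 4 in CaCo-2 and 5 in THP-1, none of which passed after adjustment, and the 3 highest THP-1 points, 0.20 to 0.29, rest on unstimulated replicate 3.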

How the data were processed

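The deposited values are linear intensity readings, judging by their range. Per the labels' protocols, RNA was labelled with 33P by reverse transcription and hybridised to cDNA membranes. How spots were quantified, background-corrected or normalized was not given in the sources. Of the 33 columns, 11 were sums with an SD of 4.07 to 4.09 against 1.36 to 1.38. In 10 of them 99.6% to 99.9% of values were at least 2 times those of 1 single column, against at most 82.6% for the next column. Of these pairs 9 were counted once through the single column, and 1 with opposite labels (CaCo-2 control 8 and CaCo-2 TNF 3) was left out. THP-1 control replicate 3 was a sum without a partner and was divided by 3. The plan was to count columns with the same readings once. It did not name the pair with opposite labels or the sum without a partner. Negative codes (46 to 286 per array) and readings of 0 were set to missing, and log2 of the deposited values was quantile normalized.

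A spot needed 3 measured arrays in each group. Tests used limma 3.58.1 in R 4.3.3, with lmFit and a trended eBayes. P-values are two-sided and were adjusted by Benjamini and Hochberg's method over all spots tested, at a threshold of 0.05, and the method was tested on simulated data. Named genes are the members past the threshold, the 3 smallest p per role and comparison, spots above 0 on all arrays of 1 group and at 0 on all of the other, and a fixed set of well-known members, of which a selection is printed. MCM9, CDC7, CDKN2AIP, CDKN1C, CCNE2, CCNA1 and CENPB were named for their readings at 0, after their values were seen, as were the spots named for 1 array that stands apart. The members and lists were chosen with earlier results of these data known. Symbols come from the platform annotation, and the Entrez identifiers of all 157 member spots are in RefSeq. Besides left-out arrays, 14 settings were run. Replicate numbers do not pair the arrays.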

Additional observations from a re-analysis of the deposited data

Results flagged for a closer look

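In 15 of 251 sets of 4 to 7 arrays examined, 1 per named member spot and group, 1 array lay far from the others by Dixon's test. Some of these spots were named because 1 array stands apart, so this count cannot be read against the 1 in 20 sets (12.55) that chance gives. Over all member spots, named or not, it was 25 of 395 sets, near the 19.75 that chance gives. In unstimulated THP-1 replicate 3, the array deposited only as a sum, whose lowest value above 0 was 0.0378 after division by 3 against 0.0921 to 0.136 in the other arrays, CENPT read -3.13 against -2.13 to -2.04 in the other arrays of its group, and CDK5R2 read -3.09 against -1.62 to -1.59. The same array was high for KIF11 spot 80C13 (-2.67 against -2.74 to -2.73), CDK6 spot 50M07 (-1.998 against -2.09 to -2.07) and CDKN1B (-2.72 against -2.85 to -2.82). In unstimulated CaCo-2 replicate 3, MCM3 read -2.10 against -2.70 to -2.63, and CCNB1 read -2.53 against -2.86 to -2.79. CENPX read -1.08 in TNF-treated CaCo-2 replicate 2, against -1.97 to -1.76. KIF3C spot 10N20 read -1.28 in TNF-treated CaCo-2 replicate 6, against -1.22 to -1.19, and CDC42EP4 read -2.66 in unstimulated CaCo-2 replicate 2, against -2.74 to -2.73. Among TNF-treated THP-1 arrays, CCNB2 read -1.57 in replicate 6 against -1.74 to -1.68, CENPN spot 54E21 read 0.41 in replicate 2 against 0.08 to 0.21, and in replicate 8 CDC27 spot 42L14 read -2.38 against -2.64 to -2.55 and MCM9 read -3.08 against -3.02 to -2.98. KIF1B spot 58L16 read -0.084 in unstimulated THP-1 replicate 7, against 0.21 to 0.27; without that array the spot was lower in CaCo-2 at -0.12 ± 0.04 (limma adjusted p = 0.039).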

How the results depend on the processing

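Over all arrays, the 10 members past the threshold became 0 with no normalization between arrays and 6 genes when the spots of a gene were averaged, and 7 (without unstimulated CaCo-2 replicate 2) to 15 (without unstimulated CaCo-2 replicate 1) with 1 array left out. None of the 10 changed sign under any setting. The 1811 spots in all became 3218 (2359 higher and 859 lower, against 1028 and 783) with 0 held at the lowest value during normalization, 188 (60 and 128) with no normalization, 535 genes (384 and 151), and 1186 (without TNF-treated CaCo-2 replicate 4) to 2477 (without TNF-treated THP-1 replicate 8) with 1 array left out. Among TNF-treated arrays the 134 spots became 444 (365 and 79) with 0 held low, 1307 (1137 and 170, against 91 and 43) with array medians subtracted, 425 (354 and 71) with the lowest value of the array as a covariate, 60 with only spots above 0 on every array, 65 genes, 432 (245 and 187) with 0 raised to the lowest value, and 54 to 433 with 1 array left out (54 to 77 without CaCo-2 replicate 4 or THP-1 replicate 1, 2, 3, 4 or 6, and 245 and 433 without CaCo-2 replicate 1 and THP-1 replicate 8). The 0 members there became 3, 2 (all 4 groups in 1 fit), 8 (medians), 1 (dimmest spots out), 2 (covariate), 1 (genes), 3 (0 raised) and 0 to 1 with 1 array left out. Among unstimulated arrays the 21 spots became 75 (48 and 27, against 6 and 15) with 0 held low, 80 (36 and 44) with all 4 groups, 0 with medians, 13 with 2 measured arrays, 13 (7 and 6) with the mean of single and summed columns, 5 (3 and 2) with no normalization, 10 genes, 155 (97 and 58) with 0 raised, and 1 (without THP-1 replicate 2) to 399 (without CaCo-2 replicate 1) with 1 array left out (7 to 13 without any of the others but THP-1 replicate 3, which gave 28); the 0 members became 1 with 0 held low and 0 to 2 with 1 array left out. For TNF, 0 spots became 15 in CaCo-2 and 5 in THP-1 with 0 raised, with 0 to 0 in CaCo-2, 0 to 1 in THP-1 and 0 to 0 for the interaction with 1 array left out, and members stayed at 0. The replicate number as a block gave 0 of the 21 unstimulated spots, and 6 spots and 1 member (CENPF 93N06, -0.81 ± 0.05) for the interaction, but the numbers do not pair the arrays: same-numbered arrays correlated at -0.30 to 0.67 in CaCo-2 and -0.37 to 0.31 in THP-1. Instead CaCo-2 arrays with other numbers deviated together, such as TNF replicate 6 with control replicate 5 (r = 0.73 over 6401 spots), which the tests treat as independent. The causes were not tested. The settings with 0 held low, with the covariate, and all settings of the fit over all arrays were added after seeing the data. The number of arrays and readings at 0 limit every value.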
